A study of Danio rerio with 4 samples.

Results

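Dibutyl phthalate (DBP) and diisobutyl phthalate (DiBP) were compared directly, 1 library of zebrafish testis RNA for each. The compounds are plasticizers and isomers of each other: DBP carries linear and DiBP branched butyl groups on its esters. The members of the comparison were the Ensembl genes whose mean over the DBP and the DiBP library was at least 1 FPKM (fragments scaled for transcript length and depth), which were 16574 of the 35066 Ensembl genes and of the 49610 genes and assembled loci in all. The measure was DiBP minus DBP on the log2(FPKM + 1) scale, so a positive value stands for a higher level in DiBP. The control library served as the reference for which isomer lay away from it, and the library of the joint exposure (DBP+DiBP) is given beside as "both". Levels are given for each library, and the DiBP minus DBP difference on the log2 scale follows in parentheses. Where several compared genes carry the same symbol, the Ensembl identifier follows it; copies under the level minimum are not marked.

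The 4 libraries were labelled as testis of AB strain, wild type, male fish, 5 months old, while the design text of the study calls the fish female; the exposures lasted 30 days according to that text. Control fish received neither compound. The labels give no dose, and not how many fish made up a library, so the levels of DBP and DiBP may not have been matched. Each group was 1 library, so no difference below has a replicate check, no p-value can be had from the isomer libraries alone, and "higher" and "lower" describe these libraries. The unit FPKM was read from the values, because neither the files nor the labels name it. Summed FPKM over Ensembl genes was 518287 in DBP and 496049 in DiBP, and the spacing of low values put the depth at 1.05 times control in DBP and 1.103 times in DiBP. Defining testis genes were present in both libraries: SYCP3, a protein of the meiotic chromosome axis, stood at 518 and 532 FPKM, DDX4, a germ cell RNA helicase, at 251 and 262, and insl3, a Leydig cell hormone, at 2455 and 1044.

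Phthalate diesters are split by esterases to monoesters, and in rats the butyl and isobutyl esters are known to lower fetal testicular testosterone and the Leydig cell product Insl3. In the testis, Leydig cells make androgen from cholesterol, Sertoli cells nurse the germ cells, and the germ cells make up most of the tissue. Immediate early genes and heat shock genes are transcribed within minutes of many kinds of stimulus, the former through kinase signalling and serum response factor, the latter when heat shock factor is released from chaperones.

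Between the isomers, 849 of the 16574 genes (5.12%) lay at least 2-fold apart, 353 (2.13%) higher and 496 (2.99%) lower in DiBP. At 4-fold or more the order turned, with 82 genes higher and 45 lower in DiBP. The median difference over all members was -0.00. Of the 849 genes, 194 shared all their values with another identifier, so that the gene behind them is uncertain, 196 had no symbol and 187 carried only a provisional clone name. With identifiers that share values left out, 315 genes were higher and 340 lower, so most of the excess on the lower side came from such identifiers. Of the 16574 genes 1152 were under 1 FPKM in DBP or in DiBP, and 281 of these were past 2-fold. The 11 at 0 in one of the libraries were past it by the level minimum itself. That minimum also forced a 2-fold gap on genes very low in 1 library, such as icn2 at 0.292 FPKM in DBP. Part of the 281 was therefore fixed in advance, and how many was not counted. The share past 2-fold was 5.29% among genes with a mean of 1 to 2 FPKM, 6.41% at 2 to 5, 5.27% at 5 to 10, 4.39% at 10 to 50, 3.14% at 50 to 200 and 4.63% at 200 FPKM and above. Just inside the level minimum lay wu:fc38h03 at 1.19 FPKM in DBP and 0.814 in DiBP, and just outside it larp4aa at 0.885 and 1.11 FPKM. On the side higher in DiBP, the gene nearest above the 2-fold mark was ATRN at 0.396 and 1.80 FPKM, and the gene nearest below it was fam83e at 15.2 and 31.3. Between the DBP and the DiBP library Pearson's r of log2(FPKM + 1) was 0.961 across the 16574 genes, a description in which genes are not replicates.

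**Figure D1:**
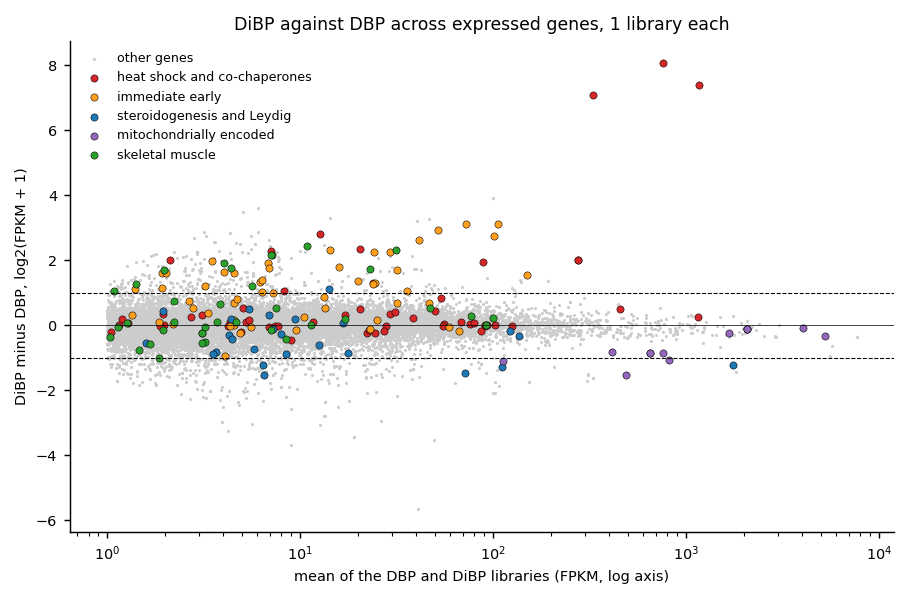
Each point is 1 of 16574 genes, with the mean FPKM of the DBP and DiBP libraries on a log axis and the DiBP minus DBP difference in log2(FPKM + 1); dashed lines mark 2-fold, and 5 gene lists are coloured. Of the immediate early genes 28 of 53 and of the heat shock genes 12 of 58, up to 8.08, lie past the upper line, while the steroid and mitochondrially encoded genes lie mostly below 0.

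A fit over all 4 libraries with additive DBP and DiBP terms (limma, 1 residual degree of freedom) gave an interval to each difference, on the footing that any departure of the joint library from additivity is noise. It called 4 of 16574 genes (0.0241%), all of them heat shock protein 70 genes and all at an adjusted p of 0.04995. Among these genes hsp70.1 and HSPA2 had identical values, so they count as 1 measurement. The 95% interval for hsp70l ran from 5.50 to 9.28 on the log2 scale. With genes that share values left out the fit called 0 genes, with a lowest adjusted p of 0.163 and 184 genes at an unadjusted p under 0.05, and with the minimum set on the mean of all 4 libraries it called 0, with a lowest adjusted p of 0.362 and 149 genes at an unadjusted p under 0.05.

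Read against control, more of these genes lay away from it in DBP than in DiBP. Of the 849 genes, 386 (45.5%) were 2-fold from control in the DBP library alone, 180 (21.2%) in the DiBP library alone, 58 (6.83%) in both the same way and 11 (1.296%) in both in opposite ways. The remaining 214 (25.2%) lay 2-fold from control in neither. In the DBP-alone class 142 genes were higher and 244 lower in DiBP, and in the DiBP-alone class 95 were higher and 85 lower. The control value lay between the isomers for 462 genes, below both for 222 and above both for 165. Over all 16574 genes, 8.39% were 2-fold from control in DBP and 6.08% in DiBP. Both counts use the same control library, so a high or low control value moves a gene away from both isomers at once.

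**Figure D2:**
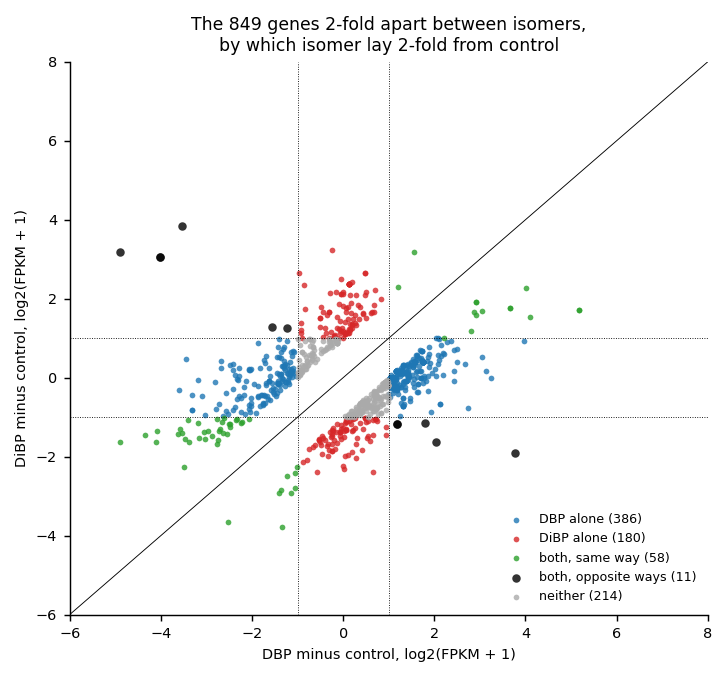
The 849 genes 2-fold apart between the isomers, with DBP minus control on the horizontal and DiBP minus control on the vertical axis, both in log2(FPKM + 1) from 1 library each; colours give which isomer lay 2-fold from control, and dotted lines mark 2-fold. The 386 DBP-alone genes form the horizontal band, the 180 DiBP-alone genes the vertical band, and the 11 genes in opposite corners include the heat shock protein 70 genes.

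Heat shock proteins and their co-chaperones stood apart at a few inducible genes. Of 58 genes measured in this list of 64, 12 were 2-fold higher in DiBP and 0 lower, against 2.13% higher over all members, and the list median was 0.10. The hsp70 genes, inducible chaperones that bind unfolded proteins, held the largest differences of the whole comparison. hsp70.3 stood at 165 FPKM in control, 4.61 with DBP, 1511 with DiBP and 144 with both (8.08), and hsp70l at 161 FPKM in control, 12.99 with DBP, 2342 with DiBP and 298 with both (7.39). In each of them the control lay between the isomers, DBP far below it and DiBP far above it: the difference from control of hsp70.3 was -4.89 in DBP and 3.19 in DiBP. hsp70.1 shared its values with HSPA2, so that which of them was measured is uncertain, at 77.9 FPKM in control, 3.84 with DBP, 656 with DiBP and 90.7 with both (7.09). The joint library lay within 2-fold of control for these genes.

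The partners of hsp70 were spread over the classes. dnajb1b, a J-domain co-chaperone of hsp70, was 32.7 FPKM in control, 36.3 with DBP, 142 with DiBP and 19.5 with both (1.94), so that DBP was close to control and DiBP above. The same held for HSP90AA1, the inducible Hsp90, at 154 FPKM in control, 108 with DBP, 443 with DiBP and 63.8 with both (2.02), values it shared with hsp90aa1.1. BAG3, which releases clients from hsp70, showed the reverse at 10.5 FPKM in control, 1.75 with DBP, 12.4 with DiBP and 3.49 with both (2.29), with DiBP close to control and DBP below. HSPB1, a small heat shock protein, was lower than control in both isomers, at 74.6 FPKM in control, 6.13 with DBP, 34.98 with DiBP and 14.4 with both (2.34). FKBP5, a co-chaperone of steroid receptors and itself a glucocorticoid target, was 18.02 FPKM in control, 2.42 with DBP, 22.9 with DiBP and 58.9 with both (2.80), again low in DBP alone. The constitutive members did not part past 2-fold: HSPA8 (ENSDARG00000068992) was 379 FPKM in DBP and 532 in DiBP, HSP90AB1 1049 and 1257, and hsf1, the heat shock factor, 7.75 and 7.68. Counted over the 12 genes, 3 were 2-fold from control in DBP alone, 4 in DiBP alone, 3 in both in opposite ways, 1 in both the same way and 1 in neither. Of the 58 genes measured, 3 shared all their values with another identifier, and HSP90AA1 and hsp90aa1.1 are 1 measurement in such counts.

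Genes of the endoplasmic reticulum stress response showed smaller gaps. Of 38 genes measured, 5 were 2-fold higher in DiBP and 0 lower, against 2.13% higher over all members. The list median was 0.19, and 4 of the 5 were 2-fold from control in DBP alone. HSPA5, the chaperone BiP of the endoplasmic reticulum, was 293 FPKM in control, 108 with DBP, 278 with DiBP and 178 with both (1.36). HSP90B1, the Hsp90 of the same compartment, was 47.2 FPKM in control, 13.3 with DBP, 29.4 with DiBP and 44.5 with both (1.09), and CHAC1, a glutathione-degrading enzyme induced through ATF4, was 124 FPKM in control, 41.7 with DBP, 95.8 with DiBP and 96.2 with both (1.18). In all 3 the DiBP library was closer to control than the DBP library, which was the lowest of the 4. ppp1r15a, the phosphatase subunit that reverses the phosphorylation of the initiation factor eIF2, was 32.8 FPKM in control, 13.5 with DBP, 63.03 with DiBP and 50.03 with both (2.14). EIF2AK3, the kinase PERK that makes this phosphorylation, was 5.56 FPKM in control, 5.70 with DBP, 13.2 with DiBP and 7.46 with both (1.08), and it was the only one of the 5 with DiBP alone 2-fold from control.

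The immediate early genes had the highest share apart of the 48 lists. Of 53 measured, 28 (52.8%) were 2-fold higher in DiBP and 0 lower, against 2.13% higher over all members, and the list median was 1.07. Of the 28, 20 were 2-fold from control in DBP alone and 8 in both isomers the same way, below control in each. The median of the list against control was -1.53 in DBP and -0.20 in DiBP. Among the AP-1 factors, JUN was 77.9 FPKM in control, 11.3 with DBP, 93.02 with DiBP and 209 with both (2.94). JDP2, a partner that represses AP-1, was 62.95 FPKM in control, 10.96 with DBP, 72.2 with DiBP and 44.01 with both (2.61), and CEBPB, a leucine zipper factor of acute responses, was 136 FPKM in control, 14.1 with DBP, 131 with DiBP and 286 with both (3.13). For these the DiBP and the control library were close, and the DBP library stood alone at a low level. The zinc finger factor egr1 repeated this with 23.8 FPKM in control, 4.09 with DBP, 24.4 with DiBP and 29.6 with both (2.32), and so did BTG2, an antiproliferative transcript, with 35.1 FPKM in control, 7.70 with DBP, 40.5 with DiBP and 51.5 with both (2.25). SRF (ENSDARG00000102867), the serum response factor, was also lowest in DBP, at 5.38 FPKM in control, 2.41 with DBP, 9.04 with DiBP and 6.91 with both (1.56).

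A second set of immediate early genes lay under control in both isomers and deeper in DBP. FOSB was 36.7 FPKM in control, 2.62 with DBP, 11.2 with DiBP and 10.2 with both (1.75). FOSL1, a further Fos member, was 20.7 FPKM in control, 1.44 with DBP, 6.59 with DiBP and 4.31 with both (1.64), and DUSP5, a phosphatase of nuclear ERK, was 35.6 FPKM in control, 2.304 with DBP, 11.4 with DiBP and 8.57 with both (1.91). In these the order of the libraries was control, DiBP, DBP from high to low, and the joint library sat below DiBP. Among the list members that stayed under 2-fold, DUSP6, the ERK phosphatase of the cytoplasm, was level at 4.51 FPKM in DBP and 4.57 in DiBP, and KLF11 (ENSDARG00000013794), a Krüppel-like factor, went the other way at 5.66 and 2.49.

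**Figure D3:**
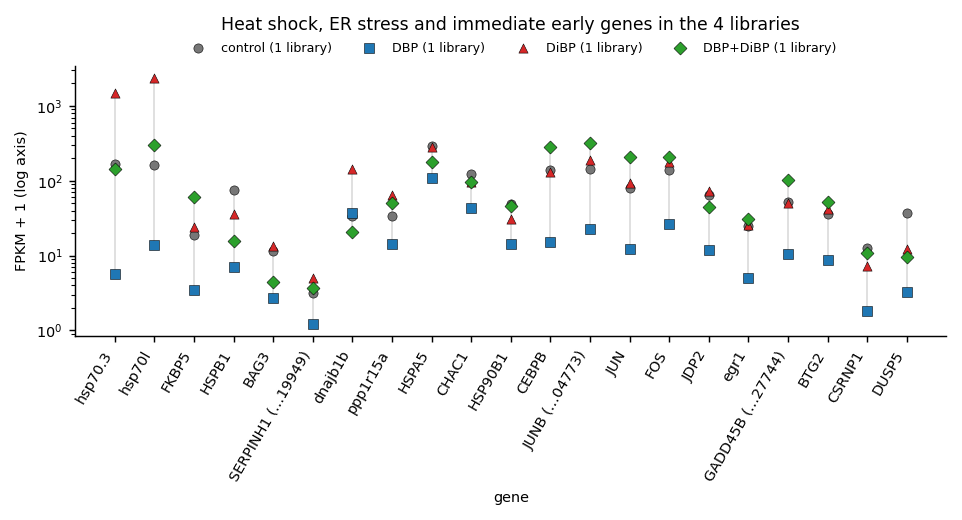
FPKM + 1 on a log axis in the 4 libraries for heat shock, endoplasmic reticulum and immediate early genes, 1 marker per library. DiBP is the highest marker for hsp70l at 2342 FPKM and DBP the lowest at 12.99, while for CEBPB the DiBP and control markers nearly coincide.

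Among inflammation and complement genes, 6 of 40 were higher and 6 lower in DiBP, with a median of 0.17. Over all members 2.13% were higher and 2.99% lower. The chemokine cxcl18b was 264 FPKM in control, 7.86 with DBP, 85.1 with DiBP and 24.8 with both (3.28), and PTGS2 (ENSDARG00000004539), the inducible cyclooxygenase, was 33.3 FPKM in control, 0.694 with DBP, 11.5 with DiBP and 3.29 with both (2.88). nfkbiaa, an inhibitor of NF-kappaB and one of its targets, was 128 FPKM in control, 17.8 with DBP, 61.6 with DiBP and 54.5 with both (1.73). All 3 were highest in control and lowest in DBP. The neutrophil chemokine cxcl8a was 11.3 FPKM in control, listed at 0 with DBP, 3.57 with DiBP and 2.04 with both. Among the 6 lower genes c7b, a component of the membrane attack complex, was 1.31 FPKM in control, 6.74 with DBP, 1.09 with DiBP and 6.32 with both (-1.89), and CXCL12, a chemokine of stromal cells, was 2.598 FPKM in control, 4.79 with DBP, 0.996 with DiBP and 6.68 with both (-1.53). In both DBP was above control and DiBP near or below it. Among the glucocorticoid responsive genes 3 of 12 were higher and 1 lower, CEBPD, a leucine zipper factor, being 32.9 FPKM in control, 14.5 with DBP, 48.9 with DiBP and 135 with both (1.69). This list overlaps others: FKBP5, among the higher genes, is also in the heat shock list. The lower gene, PER1 (ENSDARG00000056885), is also in the circadian clock list. HIF1A, the oxygen-regulated factor, was 1.64 FPKM in control, 1.998 with DBP, 13.2 with DiBP and 2.07 with both (2.25), high in DiBP alone. It was itself 1 of the 2 higher genes in the hypoxia list of 26, the other being PDK2 (1.28). In that list 0 were lower, and the median was -0.01.

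Leukocyte markers were read beside these immune values. Of 35 macrophage and neutrophil genes, 2 were higher and 2 lower in DiBP, the lower ones with identical values, beside 5.12% of all members 2-fold apart. The summed level of the list was 201 FPKM in control, 227 with DBP, 301 with DiBP and 3751 with both. Among the defining genes, marco, a macrophage scavenger receptor, was low and alike in the isomers at 4.75 and 4.46 FPKM. The same held for lyz, lysozyme of neutrophils, at 6.82 and 5.89. A copy of MPEG1, a further macrophage marker, lay under the level minimum and went the other way, at 0.609 FPKM in DBP and 1.33 in DiBP. Most of the summed gap came from grna.2, a granulin, at 13.7 FPKM in control, 7.04 with DBP, 73.5 with DiBP and 1170.3 with both (3.21). Of 14 lymphocyte genes 1 was higher, ighm, whose values were shared with another identifier. The part of leukocytes in the differences of inflammatory genes was not tested.

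The Leydig cell and steroid genes ran in the other direction, lower in DiBP. Of 25 genes measured of 37 in the list, 5 were 2-fold lower and 1 higher in DiBP, against 2.99% lower and 2.13% higher over all members. The list median was -0.42, and 18 of the 25 lay below 0. The median against control was 0.22 in DBP and -0.36 in DiBP, so that the isomers lay on opposite sides of the control, and 4 of the 5 lower genes fell in the class with neither isomer 2-fold from it. The other, STAR, was 2-fold from control in DiBP alone. In bulk RNA, fewer cells of a type and less RNA per cell cannot be told apart.

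Along the pathway, STAR, which carries cholesterol into mitochondria, was 132 FPKM in control, 159 with DBP, 64.6 with DiBP and 71.5 with both (-1.28). CYP11A1 (ENSDARG00000002347), the enzyme that cleaves the cholesterol side chain, was 5.37 FPKM in control, 10.2 with DBP, 2.85 with DiBP and 3.12 with both (-1.54). A further identifier of this symbol, CYP11A1 (ENSDARG00000092696), was 5.35 FPKM in control, 9.41 with DBP, 3.46 with DiBP and 3.80 with both (-1.22). cyp11c1, the 11-beta-hydroxylase that leads to 11-ketotestosterone in fish, was 53.3 FPKM in control, 105 with DBP, 37.3 with DiBP and 46.4 with both (-1.47). In each of these DBP was the highest library and DiBP the lowest. hsd3b1, which makes delta-4 steroids, came close to 2-fold at 4.81 FPKM in control, 11.2 with DBP, 5.63 with DiBP and 7.69 with both, with a difference of -0.88. CYP17A1, the 17-alpha-hydroxylase and lyase, had a smaller gap at 13.1 FPKM in control, 15.4 with DBP, 9.74 with DiBP and 4.03 with both, a difference of -0.61.

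The ferredoxins, which pass electrons to the mitochondrial P450 enzymes, went opposite ways. fdx1 was 14.8 FPKM in control, 8.50 with DBP, 19.8 with DiBP and 20.8 with both (1.13), higher in DiBP. fdx1b, the paralogue known in zebrafish to serve steroid synthesis, was 33.6 FPKM in control, 23.3 with DBP, 12.3 with DiBP and 7.65 with both (-0.87), lower in both isomers than in control. NR0B1, the nuclear receptor DAX1 that represses steroid genes, was 5.01 FPKM in control, 4.87 with DBP, 2.19 with DiBP and 4.12 with both, a difference of -0.88 that came to -1.12 with a pseudocount of 0.1. insl3, the peptide hormone of Leydig cells, was 2072 FPKM in control, 2455 with DBP, 1044 with DiBP and 293 with both (-1.23). HSD11B2, which oxidises 11-hydroxylated steroids, was 6.18 FPKM in control, 16.3 with DBP, 16.97 with DiBP and 9.95 with both (0.06), above control at a like level in both isomers, and tspo, a mitochondrial outer membrane protein, was 129.8 FPKM in DBP and 116 in DiBP. The receptors lhcgr, FSHR and ESR1 and the enzymes HSD17B3 and CYP19A1 were under the level minimum and are not compared.

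The Sertoli cell and gonad somatic list held 3 of 32 genes lower in DiBP and 0 higher, against 2.99% lower over all members, with a median of -0.05. Those 3 were CXCL12, DES, a muscle and stromal intermediate filament, and tfa, transferrin, which other tissues also make. The defining genes differed little between the isomers. amh, the anti-Müllerian hormone, was 79.1 FPKM in control, 52.6 with DBP, 42.7 with DiBP and 31.3 with both (-0.30). gsdf, a gonad-specific growth factor of fish, was 54.96 FPKM in control, 94.95 with DBP, 89.9 with DiBP and 339.6 with both (-0.08), and DMRT1, the male gonad transcription factor, was 105 FPKM in control, 112 with DBP, 106 with DiBP and 54.4 with both (-0.08). Here the isomers were closer to each other than to the joint library.

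Few germ cell genes were 2-fold apart between the isomers, beside 5.12% of all members. Of 20 genes of spermatogonia and germ plasm and of 40 genes of meiosis, 0 were 2-fold apart, with medians of -0.21 and -0.14. Of 75 genes of spermatids and the flagellum 1 was lower and 0 higher, with a median of -0.07. Whether these counts differ from the share of all members was not tested. More genes lay below 0 than above, 16 against 4 in germ plasm, 25 against 15 in meiosis and 44 against 31 in spermatids. PIWIL1, a piRNA-binding protein, was 154 FPKM in DBP and 114 in DiBP, and DAZL, a germ cell RNA-binding protein, 199 and 177. The range ran from -0.72 at TDRD1 to 0.46 among germ plasm genes, and SYCP1, of the synaptonemal complex, was 195 FPKM in control, 317 with DBP, 195 with DiBP and 147 with both (-0.70), with DiBP level with control. stag3, a meiotic cohesin subunit, was 13.3 FPKM in control, 41.3 with DBP, 53.97 with DiBP and 15.03 with both (0.38), which put both isomers well above control and near each other. The axonemal dynein dnah9 did the same at 6.83 FPKM in control, 21.4 with DBP, 21.4 with DiBP and 14.7 with both (-0.00). The 1 gene past 2-fold was dnaaf3, an assembly factor of axonemal dyneins, at 22.96 FPKM in control, 30.1 with DBP, 12.2 with DiBP and 14.3 with both (-1.23). Against control the spermatid list had a median of 0.58 in DBP and 0.49 in DiBP, with 8 of 75 genes 2-fold higher in each, against 5.37% of all members in DBP and 3.84% in DiBP.

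Cell division genes were also near level. Of 71 cell cycle and replication genes 1 was higher in DiBP and 0 lower, against 2.13% higher over all members, with a median of 0.01. That gene was RRM2 (ENSDARG00000020711), a subunit of ribonucleotide reductase, at 90.2 FPKM in control, 49.2 with DBP, 137 with DiBP and 96.1 with both (1.46). PCNA, the replication clamp, was 365 FPKM in DBP and 406 in DiBP, and mki67, a proliferation marker, 35.1 and 26.6.

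**Figure D4:**
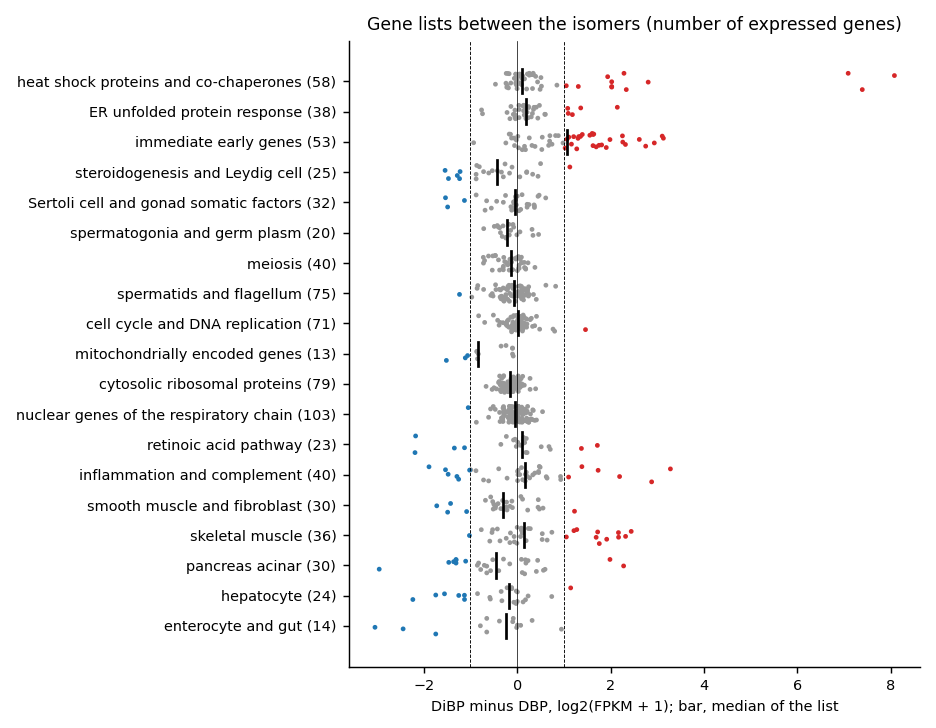
DiBP minus DBP in log2(FPKM + 1) for the genes of 19 lists, 1 point per gene, red when at least 2-fold higher and blue when at least 2-fold lower in DiBP, with a bar at the median. The immediate early genes have their median at 1.07 and the steroid genes at -0.42, while the germ cell lists keep nearly all points inside the 2-fold lines.

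The genes encoded by the mitochondrial genome were lower in DiBP throughout. All 13 had a difference below 0, 3 of them past 2-fold, against 2.99% lower over all members, and the median was -0.83. Their share of summed FPKM over Ensembl genes was 7.61% in control, 4.55% in DBP and 3.79% in DiBP. The complex I subunits carried the gap: the 7 ND genes ran from -1.52 to -0.83, and the other 6 genes, of cytochrome oxidase, cytochrome b and ATP synthase, from -0.35 to -0.08. MT-ND6 was 755 FPKM in control, 730.2 with DBP, 255 with DiBP and 881 with both (-1.52), and MT-ND5 was 182 FPKM in control, 155 with DBP, 71.3 with DiBP and 201 with both (-1.11), with DBP near control and DiBP below. MT-CO1, the first subunit of cytochrome oxidase, was 6693 FPKM in control, 4195 with DBP, 3957 with DiBP and 4504 with both (-0.08), below control in both isomers by about the same. Of the 13 genes, 7 shared all their values with another identifier, MT-ND3 among them, and its difference of -1.06 came to just under 2-fold when the library totals were made equal.

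Nuclear genes of the respiratory chain and its assembly did not follow, 1 of 103 being lower and 0 higher, with a median of -0.05; the lower gene was SDHD (ENSDARG00000055712), a membrane anchor of complex II, at 17.9 FPKM in control, 23.2 with DBP, 10.7 with DiBP and 4.15 with both (-1.05). Of 79 cytosolic ribosomal protein genes 0 were 2-fold apart, and the median was -0.15. RPS15 was 3245 FPKM in DBP and 2543 in DiBP. Of 47 proteasome subunits 1 was higher and 1 lower, the median being 0.12, and of 16 tubulin genes 0, with a median of 0.23. Among 21 histone genes 1 was higher and 1 lower. The counts of these lists stand beside 5.12% of all members 2-fold apart.

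Several carriers of retinoids and fatty acids were lower in DiBP, while the retinoid enzymes named here were higher or level. Of 23 retinoic acid pathway genes 4 were lower and 2 higher in DiBP, against 2.99% lower and 2.13% higher over all members. The list median was 0.10, with 14 genes above 0 and 9 below. RBP2, a cellular retinol-binding protein, was 34.8 FPKM in control, 52.8 with DBP, 10.8 with DiBP and 422 with both (-2.19). RBP7, of the same family, was 3.46 FPKM in control, 7.51 with DBP, 0.886 with DiBP and 12.3 with both (-2.17), and RBP4, the retinol carrier of plasma, was 10.8 FPKM in control, 17.9 with DBP, 7.63 with DiBP and 16.8 with both (-1.13). In each DBP was above control and DiBP below. The RBP genes too were a family picked for its share past 2-fold, with 3 of 6 measured lower in DiBP. Not all of the 4 lower genes of the list are named here. On the enzyme side RDH10 (ENSDARG00000012369), which oxidises retinol, was 39.5 FPKM in control, 8.70 with DBP, 24.2 with DiBP and 10.6 with both (1.37), and LRAT, which esterifies it, was 0.665 FPKM in control, 0.864 with DBP, 5.12 with DiBP and 1.53 with both (1.72), both higher in DiBP than in DBP. ALDH1A2, which makes retinoic acid, was 54.2 FPKM in DBP and 53.4 in DiBP, and CYP26A1, which degrades it and is induced by it, was 6.17 FPKM in control, 24.3 with DBP, 26.2 with DiBP and 42.7 with both (0.10), similarly above control in both.

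Of the 6 fatty acid-binding proteins measured, 3 were lower in DiBP and 0 higher, against 2.99% lower and 2.13% higher over all members. This family was picked for its share past 2-fold. fabp4a, of adipocytes and endothelium, was 104 FPKM in control, 164 with DBP, 37.5 with DiBP and 403 with both (-2.09). Fatty acid oxidation and PPAR target genes otherwise lay level, with 2 of 45 lower, fabp4a among them, 0 higher and a median of -0.00. Cholesterol and fatty acid synthesis had 1 of 38 higher, ELOVL5, a fatty acid elongase, at 1.57 FPKM in control, 0.526 with DBP, 2.85 with DiBP and 5.101 with both (1.34). Among 47 xenobiotic enzymes, esterases and related transporters 3 were higher and 1 lower. EPHX1, the microsomal epoxide hydrolase, was 79.7 FPKM in control, 86.7 with DBP, 175 with DiBP and 122 with both (1.01), high in DiBP. ces2a, a carboxylesterase, was 2.12 FPKM in control, 3.35 with DBP, 0.842 with DiBP and 3.50 with both (-1.24).

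Marker genes of tissues other than the gonad differed between the 2 libraries as well. Of 36 skeletal muscle genes 11 were higher and 1 lower in DiBP, against 2.13% higher and 2.99% lower over all members. The list median was 0.15, and 9 of the 12 were 2-fold from control in DiBP alone. The parvalbumins, calcium buffers of fast muscle and a family picked for its share past 2-fold, led them. Of these 5 of 7 were past 2-fold, pvalb1 and pvalb5 with identical values. pvalb4 was 19.5 FPKM in control, 9.80 with DBP, 52.9 with DiBP and 2.34 with both (2.32), and pvalb2 was 3.54 FPKM in control, 2.70 with DBP, 19.1 with DiBP and 1.45 with both (2.44). actc1b, a sarcomeric actin, was 9.74 FPKM in control, 10.1 with DBP, 35.8 with DiBP and 9.61 with both (1.72), and ckma, muscle creatine kinase, was 3.35 FPKM in control, 1.45 with DBP, 7.28 with DiBP and 0.647 with both (1.76). The fast myosin gene myhz2, the third defining marker, was below 1 FPKM in each library, at 0.0418 in DBP and 0.0563 in DiBP. The summed level of the list was 392 FPKM in control, 417 with DBP, 594 with DiBP and 579 with both. The part of muscle RNA in other differences was not tested.

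Smooth muscle and stromal genes went the other way, with 4 of 30 lower and 1 higher in DiBP and a median of -0.30. Over all members 2.99% were lower and 2.13% higher. TAGLN (ENSDARG00000045408), transgelin of smooth muscle, was 302 FPKM in control, 474 with DBP, 143 with DiBP and 1269.6 with both (-1.72), and acta2, smooth muscle actin, was 29.1 FPKM in control, 40.7 with DBP, 18.7 with DiBP and 152 with both (-1.08). POSTN (ENSDARG00000104267), a matrix protein of fibroblasts, was 3.00 FPKM in control, 9.87 with DBP, 3.04 with DiBP and 3.17 with both (-1.43), high in DBP alone. MYL9 (ENSDARG00000008030), a regulatory myosin light chain, was 31.5 FPKM in control, 1.90 with DBP, 5.80 with DiBP and 15.4 with both (1.23), highest in control. The summed level was 703 FPKM in control, 886 with DBP, 502 with DiBP and 1983 with both.

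Several digestive organ genes were lower in DiBP. Of 30 pancreas genes 7 were lower and 2 higher, with a median of -0.46. Of 24 hepatocyte genes 6 were lower and 1 higher, and of 14 enterocyte genes 3 were lower and 0 higher. Over all members 2.99% were lower and 2.13% higher. Of the 7 pancreas genes, cela1.2 and both genes annotated CELA1 had identical values. Of the 2 higher ones, ela2 shared its values with the erythrocyte gene alas2, so that which of them was measured is uncertain. The elastase cela1.3 was 13.4 FPKM in control, 4.56 with DBP, 1.01 with DiBP and 21.03 with both (-1.46), and prss59.2, a trypsin, was 39.09 FPKM in control, 40.6 with DBP, 15.2 with DiBP and 102 with both (-1.36), while prss1, a further trypsin, was level at 42.6 FPKM in DBP and 47.7 in DiBP. apoa2, an apolipoprotein, was 6.71 FPKM in control, 9.26 with DBP, 1.18 with DiBP and 209 with both (-2.23), and lgals2b, a galectin, was 23.9 FPKM in control, 8.81 with DBP, 0.805 with DiBP and 3666 with both (-2.44). For cela1.3 and lgals2b the isomers were both below control. The summed level of the pancreas list was 357 FPKM in control, 351 with DBP, 222 with DiBP and 1172 with both, and that of the enterocyte list was 76.98, 50.1, 24.5 and 6902. The defining enterocyte genes FABP2 and VIL1 stood at 0.326 and 0.386 FPKM in DBP and at 0.212 and 1.12 in DiBP, against 194 and 51.8 in DBP+DiBP. The part of such tissue in the differences between the isomers was not tested.

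**Figure D5:**
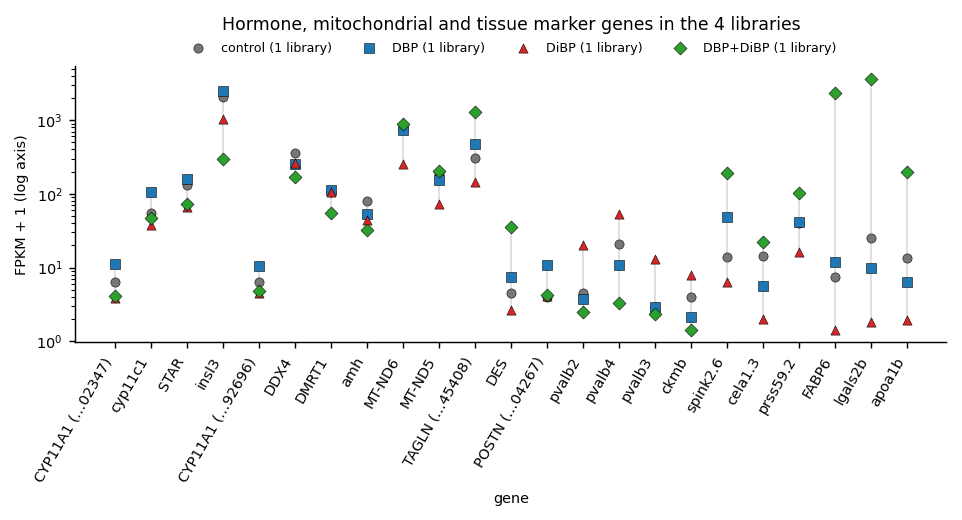
FPKM + 1 on a log axis in the 4 libraries for steroid, gonad, mitochondrial, smooth muscle, skeletal muscle, pancreas and gut genes, 1 marker per library. For STAR the DBP marker is at 159 FPKM and the DiBP marker at 64.6, for pvalb4 DiBP is highest at 52.9, and for FABP6 only the joint library stands far above the rest.

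Among gene families picked for their share past 2-fold were the spink genes, Kazal protease inhibitors. Of 7 measured, 5 were lower in DiBP and 0 higher, with a median of -2.80, against 2.99% lower over all members. This family overlaps the pancreas list, since spink2.6 is also among the 7 lower genes there. Of the 5, spink2.3 and spink2.7 had identical values, so they count as 1 measurement. spink2.2 was 5.71 FPKM in control, 24.4 with DBP, 2.64 with DiBP and 82.9 with both (-2.80). In this gene DBP stood above control and DiBP below, with the joint library highest. Of 16 estrogen responsive and ovary genes 5 were lower in DiBP, 4 of them zp2 egg coat genes with identical values, so they count as 1 measurement. The other was GDF9, an oocyte growth factor, at 0.795 FPKM in control, 2.72 with DBP, 0.548 with DiBP and 0.801 with both (-1.26). In all 5 DBP alone stood above the rest, though under 5 FPKM, and the list median of -0.29 came to 0.045 when a mean of 5 FPKM was required. Further egg coat genes did not part, zp3d.2 at 28.5 FPKM in DBP and 23.6 in DiBP among them.

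Among the genes with the largest gaps were further ones with DBP far from control. MTHFS, a folate enzyme, and eslec also belonged to the class with DBP alone 2-fold from control. EDC4, a scaffold of mRNA decapping, was 33.6 FPKM in control, 1.83 with DBP, 26.8 with DiBP and 22.3 with both (3.30), and LIMA1, an actin-binding protein, was 17.9 FPKM in control, 1.22 with DBP, 12.6 with DiBP and 10.4 with both (2.62). TIMP2 (ENSDARG00000075261), an inhibitor of metalloproteinases, was 28.2 FPKM in control, 0.722 with DBP, 10.5 with DiBP and 3.45 with both (2.73), and col17a1a, a hemidesmosomal collagen, was 11.9 FPKM in control, 1.48 with DBP, 12.4 with DiBP and 0.973 with both (2.43). In these 4 genes DBP was below 2 FPKM, though col17a1a was lower still in the joint library. SNORD14, a small nucleolar RNA, was instead 2-fold from control in DiBP alone of the isomers. It was 0.184 FPKM in control, listed at 0 with DBP, 10.1 with DiBP and 2.45 with both. In the other direction, CDKN2AIP, a regulator of p53, was 3.16 FPKM in control, 15.98 with DBP, 3.31 with DiBP and 2.22 with both (-1.98), and pimr131, a Pim-related kinase, was 3.36 FPKM in control, 14.4 with DBP, 3.13 with DiBP and 5.88 with both (-1.89). Both were highest in DBP. CD164L2 was 3.09 FPKM in control, 10.3 with DBP, 1.70 with DiBP and 1.82 with both (-2.07), and it too was highest in DBP.

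A smaller group had DiBP away from the rest. APEX1, the endonuclease of base excision repair, was 30.5 FPKM in control, 30.7 with DBP, 5.34 with DiBP and 2.78 with both (-2.32), low in DiBP and in the joint library. krt5, a basal keratin, was 1.88 FPKM in control, 1.06 with DBP, 8.94 with DiBP and 2.86 with both (2.27), high in DiBP alone, but of 38 keratinocyte and epithelial genes 2 were higher and 2 lower and the median was -0.18. Among 233 solute carriers 8 were higher and 2 lower, 4.29% past 2-fold against 5.12% of all members. Of these, slc9a3.1, a sodium-proton exchanger, was 1.36 FPKM in control, 0.328 with DBP, 6.92 with DiBP and 0.913 with both (2.58). SLC26A4, an anion exchanger, was 0.773 FPKM in control, 0.31 with DBP, 4.64 with DiBP and 0.634 with both (2.11). Both carriers passed the level minimum only through DiBP, and DBP was so low that this minimum alone put them past 2-fold. In the class with neither isomer 2-fold from control, adgre10, an adhesion receptor, was 30.1 FPKM in control, 17.6 with DBP, 60.3 with DiBP and 11.5 with both (1.72), and fhad1 was 12.5 FPKM in control, 21.9 with DBP, 6.13 with DiBP and 1.90 with both (-1.69).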

How the data were processed

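Testis RNA of 4 groups was sequenced with paired ends, 1 library each, per the labels' protocols, from NEBNext Ultra libraries. The submitters' processing notes name HISAT2, HTSeq 0.6.1 and GRCz10, without their roles. The authors deposited 1 value per gene and library, taken as FPKM from the values alone; the strand setting is not given in the sources used here. Symbols came from the table of gene names supplied with the files, in which duplicated copies can carry 1 symbol. Ensembl genes with a mean over DBP and DiBP of at least 1 FPKM were kept, differences were taken on log2(FPKM + 1), which understates the change of low genes, and 2-fold was the threshold. Since no test is possible between single libraries, p-values come from limma 3.58.1 in R 4.3.3 alone. The model was additive over the 4 libraries, with a variance trend and Benjamini-Hochberg adjusted p-values read at 0.05. The code was run on simulated data whose effects were additive, so that run cannot show whether additivity holds in these libraries. Tables and figures were made with pandas 2.3.3 and matplotlib 3.10.9.

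The members and the 48 gene lists (1743 genes measured, 169 of them past 2-fold) were chosen with earlier results of these data known, so a list's count is a description. List genes were matched by symbol, then without the copy letter, then by synonym, so a list can hold copies that were not meant. The named genes were the 15 highest and 15 lowest differences with a mean of at least 5 FPKM, up to 4 per list, fixed hormone and testis genes, gene families with at least 3 of 6 members apart and up to 4 per class of distance from control. Genes named beside these were chosen after their values were seen. Some of them had small differences, and others were past 2-fold, FOSB, FOSL1, DUSP5 and egr1 among them. Alternatives were a pseudocount of 0.1, other minimums, other scalings, identifiers that share values left out and assembled loci added. No sequences or coordinates are given, since no genome of the assembly was used here. Some genes that the rule names are not reported here.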

Additional observations from a re-analysis of the deposited data

Results flagged for a closer look

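For 11 identifiers the DBP and the DiBP library lay 2-fold from control in opposite directions. With 1 library per group the opposite directions from control were not tested. The DiBP minus DBP difference entered only the additive fit over all 4 libraries described above. In the hsp70 genes DiBP was above and DBP below control: the DiBP minus DBP difference on the log2 scale was 8.08 for hsp70.3, 7.39 for hsp70l and 7.09 for hsp70.1 and HSPA2, which share their values. The same direction held for icn2, an S100-like calcium-binding protein, at 2.83 FPKM in control, 0.292 with DBP, 8.36 with DiBP and 0.306 with both, a difference of 2.86, and for si:dkey-248g15.3 at 3.15 FPKM in control, 0.752 with DBP, 8.998 with DiBP and 1.74 with both, a difference of 2.51. In DBP icn2 was so low that the level minimum alone put it past 2-fold between the isomers. DBP was above and DiBP below control for FBXO42, a substrate receptor of a ubiquitin ligase, with 5.02 FPKM in control, 80.8 with DBP, 0.611 with DiBP and 79.3 with both and a difference of -5.67. That gene was as high in the joint library as in DBP. DBP was likewise above and DiBP below control for spink2.6, with a difference of -2.95, and for ENSDARG00000079706, which has no symbol, at 3.47 FPKM in control, 17.4 with DBP, 0.444 with DiBP and 12.4 with both, a difference of -3.67. The chemokine ccl20b shared its values with tfr1b, so that which of them was measured is uncertain, at 9.70 FPKM in control, 23.3 with DBP, 3.72 with DiBP and 2.98 with both, a difference of -2.36. The 11 were 1.296% of the 849 genes past 2-fold.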

How the results depend on the processing

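No paired analysis was possible because each group was 1 library. With a pseudocount of 0.1, 568 genes were higher and 855 lower in DiBP, and of these 592 were 2-fold from control in DBP alone, 321 in DiBP alone, 135 in both the same way, 42 in both in opposite ways and 333 in neither. With a mean of at least 5 FPKM the counts were 164 higher and 259 lower, 185 in DBP alone, 110 in DiBP alone, 34 in both the same way and 85 in neither, and 100 list genes lay past 2-fold in place of 169. With assembled loci added the counts were 657 higher and 1210 lower, 826 in DBP alone, 386 in DiBP alone, 125 in both the same way, 34 in both in opposite ways and 496 in neither. Without identifiers that share values 315 genes were higher and 340 lower, a share higher of 48.1% against 41.6% in the main setting. Of these, 277 were 2-fold from control in DBP alone, 149 in DiBP alone and 7 in both in opposite ways. The additive model called 10 genes at the minimum of 5 FPKM, and 0 without shared values or with the minimum set over all 4 libraries; the last 2 settings were chosen after seeing the data. With library totals made equal 394 genes were higher and 426 lower, a share higher of 48.0% against 41.6%. Made equal this way, gpx4a, MT-ND3, SDHD, krt4, ANXA1 and nkd3 dropped under 2-fold, and with median-ratio scaling krt4, ANXA1 and nkd3. NR0B1 passed 2-fold with the pseudocount of 0.1. The median of the ovary and estrogen list turned to 0.045 and that of endothelium to 0.18 at a mean of 5 FPKM, and that of the retinoic acid list to -0.012 with no minimum. The cause of these shifts was not tested. Depth limits the low genes most, and with 1 library per group the spread between fish is unknown.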

Other observations

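Counts in the remaining lists stand beside 5.12% of all members 2-fold apart. Of 30 circadian clock genes 1 was higher and 1 lower in DiBP, but 23 lay above 0 and 7 below, with a median of 0.25. nr1d2a, a repressor of the clock, was 4.69 FPKM in control, 1.25 with DBP, 5.99 with DiBP and 14.5 with both (1.63), and the lower gene, PER1 (ENSDARG00000056885), shared its values with another identifier. Among 76 collagens, laminins and matrix genes 3 were higher and 3 lower, among 32 p53 and apoptosis genes 2 were higher and 0 lower, and mcl1a, an inhibitor of apoptosis, was 363 FPKM in control, 75.8 with DBP, 199 with DiBP and 286 with both (1.38), low in DBP. cdkn1a, the p21 inhibitor of cyclin-dependent kinases, was 12.3 FPKM in control, 4.74 with DBP, 11.3 with DiBP and 5.25 with both. Of 38 oxidative stress genes 1 was lower, gpx4a, a lipid hydroperoxide-reducing peroxidase, at 47.8 FPKM in control, 51.3 with DBP, 24.4 with DiBP and 131 with both (-1.04).

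Of 22 nuclear and gonadotropin receptors 1 was higher, nr1d2a again, of 31 glycolysis genes 1 was higher, and of 47 TGF-beta, BMP, activin and Wnt genes 1 was lower. Of 16 genes of insulin-like growth factors and of 14 endothelial genes 0 were apart. Of 35 interferon induced genes 1 was lower, isg15, a ubiquitin-like modifier, at 101 FPKM in control, 107 with DBP, 46.4 with DiBP and 64.3 with both (-1.19), and of 24 genes of antigen presentation 1 was lower, psmb13a, an immunoproteasome subunit, at 2.59 FPKM in control, 12.4 with DBP, 3.67 with DiBP and 0.507 with both (-1.52). Of 41 junction genes 1 was higher and 2 lower, GJA1, connexin 43, being 11.12 FPKM in control, 15.9 with DBP, 6.85 with DiBP and 6.44 with both (-1.11). Of 20 neuron, glia and hormone cell genes 2 were lower, and of 19 peptide hormone genes 1, which was insl3. Of 11 erythrocyte genes 1 was higher and 1 lower. The lower one, hbaa1, an alpha globin, was 25.3 FPKM in control, 37.3 with DBP, 12.2 with DiBP and 154 with both (-1.54). The higher one, alas2, shared its values with the pancreas gene ela2, so that which of them was measured is uncertain. Of 10 microRNA genes measured of 212 in the files, 2 were higher, with values shared with each other, and 1 lower, mir202, at 0.543 FPKM in control, 23.3 with DBP, 1.91 with DiBP and 9.79 with both (-3.06).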
